A study of Rattus norvegicus with 46 samples.

Results

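Iron feeding of Belgrade rats for 6 days was compared with feeding for 3 days in the duodenal villus. The comparison takes 14 of the 46 arrays of the series, chosen by their titles: the villus top and villus bottom arrays of 3 rats fed iron for 6 days (6 arrays) and of 4 rats fed iron for 3 days (8 arrays). All 7 rats were b/b Belgrade rats, which carry a mutation of Slc11a2 (the iron importer DMT1) on a Wistar background, so the mutation is shared by both groups and does not distinguish them. Each rat gave RNA from the tips and from the bases of the villi (called top and bottom) in a short duodenal segment near the pylorus, cut parallel to the mucosal surface in a cryostat, after an overnight fast. The labels give no age or sex for the Belgrade rats, and the iron source is stated (50 µM ferric ammonium citrate in drinking water) for the Wistar rats of the study, whose procedures the Belgrade rats are said to have shared. Belgrade rats on a normal diet without added iron (4 unfed rats) are shown beside the fed groups where they help to place a level. Arrays of unfed rats 1 and 2 were nearly identical, so these rats count as 1 and leave 3 counted unfed samples. Labelling of the arrays was by Affymetrix's standard procedure, and nothing in the labels says in which batches they were run.

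Absorptive cells of the duodenum take up ferrous iron through DMT1 at the brush border, after its reduction by Cybrd1 (duodenal cytochrome b), and pass it to the blood through ferroportin (Slc40a1), with the ferroxidase hephaestin (Heph) beside it. Expression of this machinery is known to follow the iron content of the cell and of the body, through iron regulatory proteins, hypoxia-inducible factor 2 and hepcidin. In Belgrade rats DMT1 transports poorly, and the animals are anaemic and iron deficient. The same proximal villus cells also absorb calcium and take up dietary retinol, which lecithin retinol acyltransferase (Lrat) esterifies for export in chylomicrons.

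The main result is a single gene: Lrat fell in the villus bottom of the rats fed for 6 days and was the 1 probe set of 26517 that passed the test there (limma, adjusted p under 0.05), which is 0.00377% of those tested. In the villus top 0% passed, and on each rat's mean of top and bottom 0% passed. The difference between top and bottom also gave 0%. The smallest adjusted p (limma) was 0.815 on the rat mean, 0.743 in the top and 0.459 for the top-minus-bottom difference. At an unadjusted p under 0.05 limma gave 1282 probe sets on the rat mean (574 higher and 708 lower after 6 days), 1186 in the top, 1138 in the bottom and 1018 for the difference between segments, which is 4.83%, 4.47%, 4.29% and 3.84% of those tested. The median difference over all probe sets was -0.009 on the rat mean, with the middle 50% of probe sets between -0.23 and 0.21 on the log2 scale. All differences below are log2 intensity after 6 days minus 3 days of iron, so a positive value is higher after 6 days.

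The sequences just upstream of Lrat and of Trpv6 are shown because Lrat is the gene that passed the test, and because Trpv6, the apical calcium channel, had the smallest unadjusted p among the named genes that were higher in the villus top. Each is the RefSeq promoter window on GRCr8, from 250 bases before to 50 bases after the gene's start, read 5′ to 3′ on the gene's own strand. Capitals mark AGGTCA, the core hexamer bound by many nuclear receptors, searched on both strands.
Lrat, chr2:170571163-170571462, minus strand: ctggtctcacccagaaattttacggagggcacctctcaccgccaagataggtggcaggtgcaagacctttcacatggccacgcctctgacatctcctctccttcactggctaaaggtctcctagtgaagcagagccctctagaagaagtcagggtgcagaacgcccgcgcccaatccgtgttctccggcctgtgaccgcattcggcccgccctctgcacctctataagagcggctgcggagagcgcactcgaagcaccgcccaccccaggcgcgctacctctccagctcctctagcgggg
Trpv6, chr4:71489618-71489917, minus strand: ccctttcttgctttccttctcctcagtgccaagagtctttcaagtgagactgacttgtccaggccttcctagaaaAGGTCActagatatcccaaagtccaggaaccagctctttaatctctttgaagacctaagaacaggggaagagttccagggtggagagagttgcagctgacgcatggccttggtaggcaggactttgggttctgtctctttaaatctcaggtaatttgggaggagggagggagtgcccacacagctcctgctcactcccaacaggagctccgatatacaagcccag
The hexamer occurs 1 time in the Trpv6 window and in 16.2% of the 33469 rat promoter windows of this length, and these letters do not occur in the Lrat window. No binding was measured in these rats.

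Lrat is measured by a single probe set. In the villus bottom its level was 6.64, 6.22 and 6.51 in the rats fed iron for 6 days, against 9.31, 10.05, 8.86 and 9.06 in the rats fed for 3 days. The groups did not overlap, and the 3 rats fed for 6 days lay close together on this log2 scale. The difference was -2.87 ± 0.40 (SE; 95% confidence interval -3.69 to -2.04; adjusted p = 0.0141, limma with Benjamini-Hochberg adjustment over all probe sets). As deposited, the intensities in the bottom were 54.4, 24.4 and 43.7 after 6 days, against 566.9, 1074.8, 491.0 and 465.9 after 3 days. The 3 values after 6 days are far below the 40th percentile of their arrays, which was 450.9 to 468.8 intensity units, and 3-day rat 3 also lay below that of its array (547.7). Those 3 values are also near the pseudocount of 43.5 units added before log2 was taken, which draws such low values together. The size of the log2 difference depends on it, at -3.47 with a 4 times smaller pseudocount and -1.83 with a 4 times larger pseudocount. The deposited table has no detection calls. Unfed Belgrade rats had 819.0, 922.8, 608.3 and 714.9 intensity units in the bottom, on the side of the 3-day group.

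In the villus top Lrat did not differ in this way. Its level there was 10.73, 10.39 and 10.43 after 6 days, against 10, 10.25, 11.06 and 10.16 after 3 days, a difference of 0.15 with an adjusted p of 1 (limma). These groups overlapped, since the highest top value belonged to a rat fed for 3 days. The top-minus-bottom difference was therefore 4.09, 4.18 and 3.92 in the rats fed for 6 days, against 0.69, 0.19, 2.20 and 1.10 in those fed for 3 days. The change of that difference, 3.02 ± 0.50 (SE), did not pass over all probe sets (unadjusted p = 1.73e-05, adjusted p = 0.459, limma). The call in the bottom was lost when 3-day rat 1 (adjusted p = 0.074), 3-day rat 2 (0.0961), 6-day rat 2 (0.186) or 6-day rat 3 (0.105) was left out, all by limma. It was also lost when only the 7 iron-fed rats were fitted (adjusted p = 0.484, limma) and with a pseudocount 4 times larger (difference -1.83, adjusted p = 0.236, limma).

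**Figure D1:**
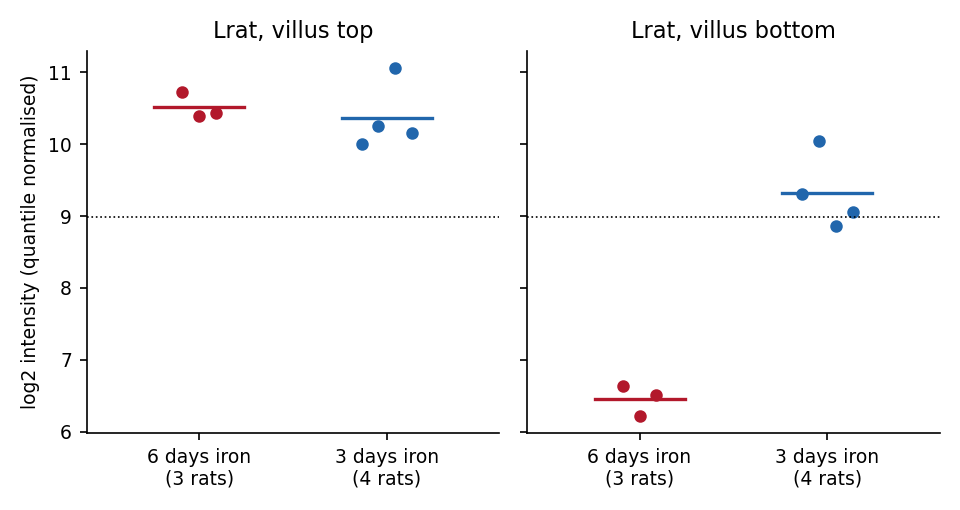
Lrat in each rat's villus top (left panel) and villus bottom (right panel), as quantile-normalised log2 intensity, with 3 rats fed iron for 6 days left of 4 rats fed for 3 days; points are rats, bars are group means and the dotted line is the 40th percentile of the normalised arrays (8.99). In the bottom the 6-day rats lie at 6.22 to 6.64, below all 3-day rats at 8.86 to 10.05, and in the top the groups overlap.

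Other genes of retinoid handling were looked up after the Lrat result was seen, and their values stand as description. Rbp2, the retinol-binding protein of the enterocyte cytoplasm, had 16.78, 16.47 and 16.74 in the villus bottom after 6 days, against 17.28, 17.26, 16.54 and 15.43 after 3 days, so the groups overlapped. Its difference there was 0.04 (95% confidence interval -1.06 to 1.13). Bco1, which cleaves beta-carotene to retinal, differed by 0.21 in the bottom, and Aldh1a1, which oxidises retinal to retinoic acid, by 0.24. Cyp26b1, which breaks retinoic acid down, differed by -0.38 and the retinoic acid receptor Rarb by 0.15 in the bottom. Dgat1, which can also esterify retinol, differed by 0.23. The values of these genes in the 7 rats overlapped between groups in the bottom.

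Sex-linked transcripts were distributed unequally over the groups. Xist, which is transcribed from the inactive X chromosome, was at 14.90, 14.65 and 14.85 in the rats fed for 6 days, against 7.32, 14.82, 8.21 and 8.14 in those fed for 3 days (rat means). The Y-linked Eif2s3y was at 5.85, 6.86 and 6.85 after 6 days, against 13.01, 5.99, 12.85 and 13.29 after 3 days. Thus 3 of 3 rats fed for 6 days, 1 of 4 rats fed for 3 days (rat 2) and 1 of the 3 counted unfed Belgrade samples had a high Xist level, above 12. Sex-linked expression and feeding time therefore cannot be told apart in most of these rats. The 1 rat that has high Xist after 3 days, rat 2, had the highest Lrat level of the 7 in the villus bottom, 10.05. With the Xist level as a covariate the Lrat difference was -2.93 with an adjusted p of 0.14 (limma).

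**Figure D2:**
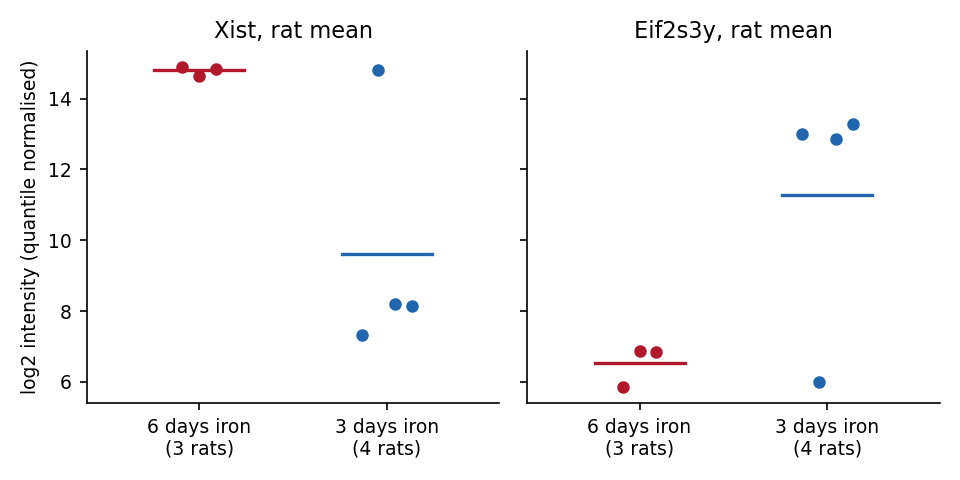
Xist (left panel) and the Y-linked Eif2s3y (right panel) in each rat, as the mean quantile-normalised log2 intensity of its top and bottom arrays, with 3 rats fed iron for 6 days left of 4 rats fed for 3 days; points are rats and bars are group means. All 6-day rats and 3-day rat 2 have Xist at 14.65 to 14.90 and Eif2s3y at 5.85 to 6.86.

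The 5 iron transport genes did not pass the test in any comparison, and each gene's normalised levels in the villus top lay close together. Slc11a2, Cybrd1 and Slc40a1 lay near the upper end of the normalised scale there, where S100g reached 17.84 in the fed rats. Over the processing alternatives their differences in the top were 0.02 to 0.29, -0.03 to 0.29 and -0.02 to 0.27. Slc11a2, which encodes DMT1 itself, had 17.28, 17.33 and 17.32 in the top after 6 days, against 17.24, 17.30, 17.21 and 17.26 after 3 days. Its difference there was 0.05 (95% confidence interval -0.28 to 0.38; adjusted p = 1, limma). The Belgrade mutation changes the protein, so the level of this mRNA checks no label. Cybrd1, the ferric reductase, had 17.37, 17.49 and 17.37 in the top after 6 days, against 17.22, 17.37, 17.35 and 17.60 after 3 days. The interval of its difference in the top was -0.30 to 0.34, that of Slc40a1 -0.25 to 0.32, and that of Heph -0.06 to 0.51. Heph had 16.80, 16.73 and 16.81 in the top after 6 days, against 16.69, 16.56, 16.50 and 16.48 after 3 days, which did not overlap. Of all 26517 probe sets, 878 had every 6-day rat above every 3-day rat in the top, and 980 had every 6-day rat below. Tfrc, the transferrin receptor that brings iron into cells from blood, had a wider interval in the top, -1.27 to 0.99, around -0.14. Its fed rats lay close together there, at 15.04, 14.70 and 14.76 after 6 days, against 15.06, 15.03, 14.89 and 14.90 after 3 days. The interval rests on the spread within all 6 villus groups of the fit (SD 0.61 in the unfed samples).

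In the villus bottom the same genes varied more between rats of a group. Cybrd1 had 14.52, 14.99 and 13.89 in the bottom after 6 days, against 12.98, 15.28, 13.22 and 14.78 after 3 days. The rats fed for 3 days alone spanned more than 2 log2 units, and the 6-day rats lay inside that span. The difference of 0.40 had a 95% confidence interval of -1.26 to 2.07. Slc40a1, ferroportin, had 15.47, 15.61 and 15.13 after 6 days, against 14.73, 15.79, 14.60 and 15.34 after 3 days, and its interval was -0.75 to 1.32. On the rat mean Slc40a1 differed by 0.16 and 0.17 with its 2 brighter probe sets and by -0.47 with its dimmest, none past the test (limma, adjusted p = 0.999 each). The median of the 5 genes on the rat mean was 0.16, beside -0.005 over the 12975 genes tested (1 probe set each, the brightest).

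**Figure D3:**
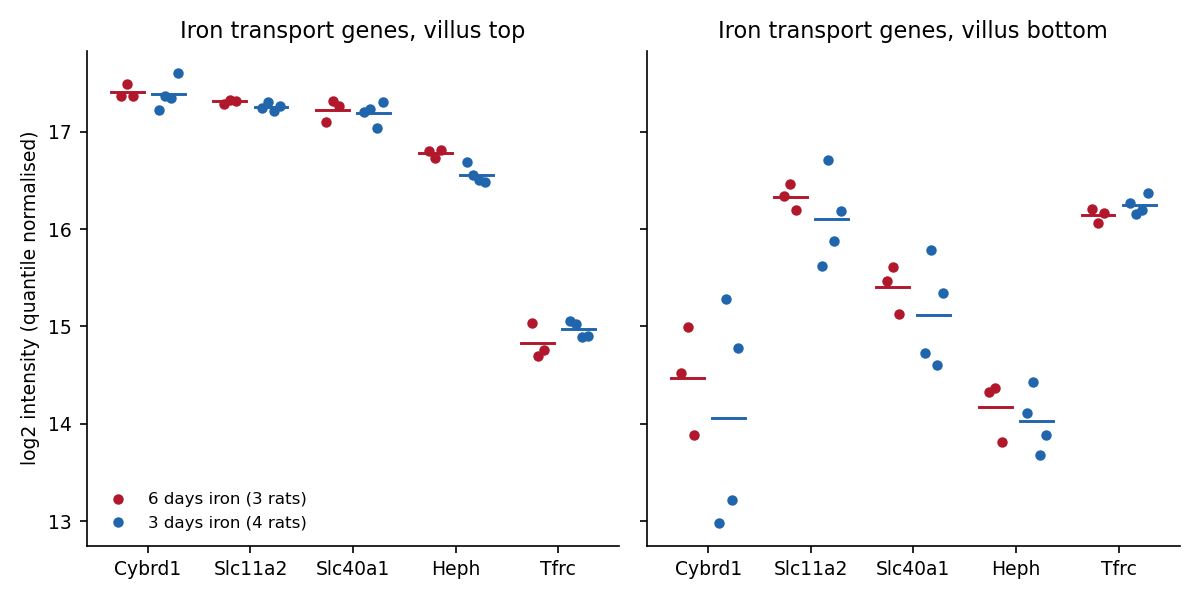
The 5 iron transport genes in villus top (left panel) and villus bottom (right panel), as quantile-normalised log2 intensity of the brightest probe set, with 3 rats fed iron for 6 days left of 4 rats fed for 3 days within each gene; points are rats and bars are group means. In the top the rats of both groups lie close together (Slc11a2 17.21 to 17.33). Heph is the 1 gene of the 5 whose groups do not overlap there, and 878 of all 26517 probe sets also have every 6-day rat above every 3-day rat in the top. In the bottom the 3-day rats spread more widely (Cybrd1 12.98 to 15.28).

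Among 23 tested genes of other iron handling 0 passed (limma). At an unadjusted p under 0.05, by which 2.07% of all genes were higher on the rat mean, 1 of the 23 was higher after 6 days. That gene was Slc46a1, the proton-coupled folate transporter that was first described as a heme carrier. Its rat means were 10.42, 11.54 and 10.85 after 6 days, against 9.78, 10.40, 8.24 and 9.04 after 3 days, which did not overlap. The difference was 1.57 ± 0.48 (SE), with an adjusted p of 0.96 (limma), and the unfed rats averaged 10.75. The heme oxygenase Hmox1 differed by -0.35 (95% confidence interval -1.02 to 0.32), and Aco1, which as iron regulatory protein binds iron-responsive mRNAs, by -0.23 (-0.68 to 0.21). The median over the 23 genes was 0.01. The 16 heme genes had a median of -0.07, the 35 hypoxia-inducible and glycolytic genes 0.01 and the 35 mitochondrial respiration genes 0.06, with 0 passing in each. At an unadjusted p under 0.05, limma gave 1 gene (Slc46a1) among the heme genes and none among the hypoxia-inducible or the mitochondrial genes. By that rule 2.07% of all genes were higher and 2.55% lower.

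Several genes of calcium and ion absorption were higher in every rat fed for 6 days than in any rat fed for 3 days, without passing the test. On the rat mean this held for 6 of 23 genes of the list, beside 3.11% of all 26517 probe sets. Trpv6, Aqp3, S100g and Slc26a3 are described below because they had the smallest unadjusted p of the list. Of 23 tested genes of calcium, phosphate and ion transport, 0 passed on the rat mean (limma), 5 were higher and 0 lower at an unadjusted p under 0.05, while 2.07% of all 12975 genes were higher and 2.55% lower by that rule. In the villus top 7 were higher and 0 lower, against 2.23% of all genes higher and 2.3% lower. In the villus bottom 3 were higher and 0 lower, against 1.6% higher and 2.1% lower. The median of the list was 0.25 on the rat mean, 0.32 in the top and 0.20 in the bottom.

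Trpv6, through which calcium enters at the brush border, had 15.00, 14.78 and 15.08 in the villus top after 6 days, against 12.04, 13.79, 14.22 and 13.88 after 3 days. Every rat fed for 6 days was above every rat fed for 3 days, and 3-day rat 1 was by far the lowest. The difference was 1.47 ± 0.33 (SE; adjusted p = 0.743, limma). S100g (calbindin D9k, which carries calcium across the cytoplasm) had rat means of 17.61, 17.26 and 17.48 after 6 days, against 16.55, 16.70, 16.96 and 16.66 after 3 days. These groups did not overlap either, and the difference was 0.73 ± 0.21 (SE; adjusted p = 0.96, limma). Both genes are known targets of vitamin D in the intestine.

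Of the other genes in that list, the aquaglyceroporin Aqp3 had rat means of 10.49, 11.36 and 10.26 after 6 days, against 9.26, 8.47, 8.85 and 9.17 after 3 days. Its difference was 1.76 ± 0.49 (SE; adjusted p = 0.878, limma). Its 3-day mean of 8.94 lies just below 8.99, the 40th percentile of the normalised arrays. Slc26a3, the chloride-bicarbonate exchanger of the brush border, had 15.53, 15.58 and 15.47 after 6 days, against 14.25, 15.26, 14.71 and 14.58 after 3 days. Slc9a3, the sodium-hydrogen exchanger NHE3, had 13.41, 13.32 and 13.40 after 6 days, against 12.12, 13.09, 12.72 and 13.24 after 3 days. In each of these genes the lowest 6-day rat was above the highest 3-day rat.

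Set beside the unfed rats, these genes did not all follow the order of feeding time. Trpv6 in the villus top was at 14.29 to 14.42 in 4 unfed rats (3 counted samples), at 12.04 to 14.22 after 3 days and at 14.78 to 15.08 after 6 days. S100g in the villus bottom was at 16.90 to 17.49 in unfed rats, at 15.64 to 16.29 after 3 days and at 16.93 to 17.43 after 6 days, so the 6-day rats were at the level of the unfed ones. Col1a1 in the bottom was at 11.34 to 12.65 in unfed rats, at 10.27 to 12.34 after 3 days and at 12.57 to 13.71 after 6 days. Lrat in the bottom was at 9.28 to 9.90 in unfed rats, at 8.86 to 10.05 after 3 days and at 6.22 to 6.64 after 6 days. Since both spans share the 3-day rats, a low 3-day group lowers the first step and raises the second.

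**Figure D4:**
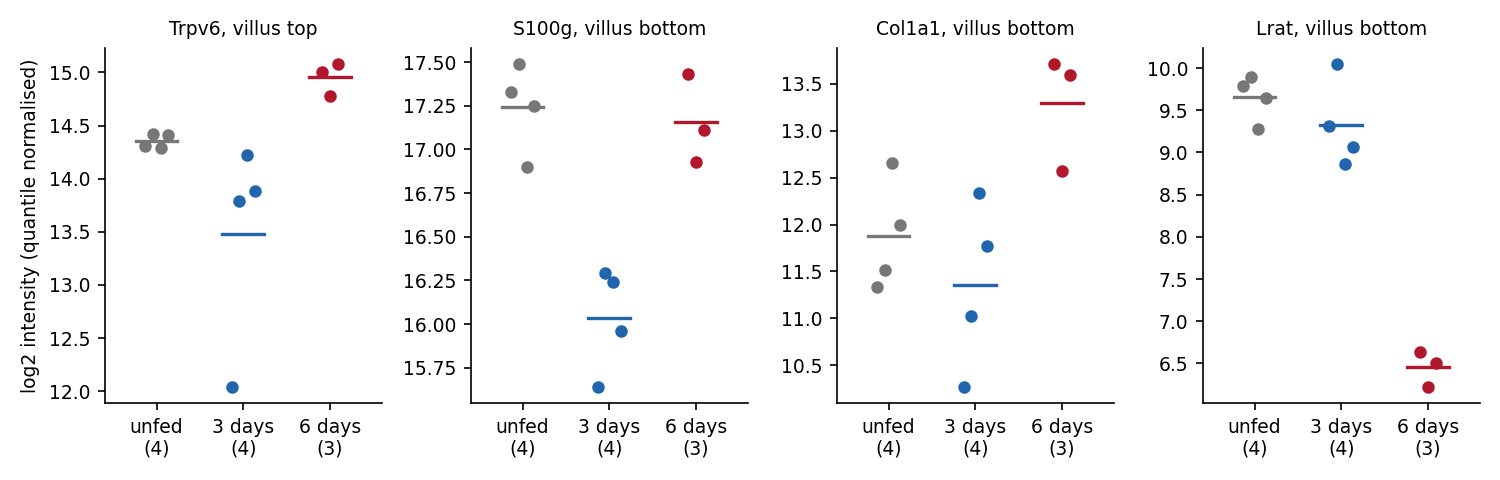
Trpv6 in the villus top and S100g, Col1a1 and Lrat in the villus bottom, as quantile-normalised log2 intensity in 4 unfed Belgrade rats (rats 1 and 2 nearly identical), 4 rats fed iron for 3 days and 3 rats fed for 6 days; points are rats, bars are group means and each panel has its own axis range. The means of Trpv6, S100g and Col1a1 are lowest at 3 days, with Col1a1 overlapping between unfed and 3-day rats. Lrat is low at 6 days only (6.22 to 6.64).

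The 11 genes of proximal intestinal identity, a list that shares Trpv6, S100g and Slc26a3 with the one above, had a median of 0.35 on the rat mean. All 11 were above 0, beside 49.3% of all genes, and 0 passed the test (limma). At an unadjusted p under 0.05, 3 were higher, beside 2.07% of all genes, and these are the 3 shared genes. Pdx1, the transcription factor of the proximal duodenum, differed by 0.32 (95% confidence interval -0.17 to 0.80), and Gata6 by 0.35 (-0.05 to 0.74). The 15 enterocyte markers had a median of 0.06, and their mean level per rat was 15.03 to 15.45 after 6 days, against 14.77 to 15.37 after 3 days. Both ranges are far above the dim level of 8.99.

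Collagen and smooth muscle transcripts averaged higher after 6 days, most in the villus bottom. On the rat mean, 0 of 22 stromal and smooth muscle genes passed (limma), 7 were higher and 0 lower at an unadjusted p under 0.05, and 20 of 22 were above 0, beside 2.07% of all genes higher and 2.55% lower by that rule and 49.3% above 0. The list's median was 0.45 on the rat mean (0.22 without 6-day rat 1), 0.70 in the bottom and 0.28 in the top. In sections of whole mucosa, more cells of a type and more RNA per cell cannot be told apart.

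Col1a1, a chain of type I collagen made by fibroblasts, had 13.71, 12.57 and 13.59 in the villus bottom after 6 days, against 10.27, 11.03, 12.34 and 11.77 after 3 days. The groups did not overlap, with 6-day rat 2 only slightly above 3-day rat 3. The difference was 1.94 ± 0.45 (SE; adjusted p = 0.725, limma), and its brighter second probe set gave 2.16. Col1a2, the partner chain, had 14.97, 14.08 and 14.60 in the bottom after 6 days, against 11.83, 12.25, 13.53 and 13.47 after 3 days. On the rat mean Col1a1 had the smallest unadjusted p among the named genes (3.48e-05, difference 1.35 with a 95% confidence interval of 0.81 to 1.89, adjusted p = 0.815, limma).

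Other collagen genes among the named ones had smaller differences. On the rat mean Col6a2 differed by 1.02, Col3a1 by 0.72, Col5a2 by 0.63 with the dimmer of its 2 probe sets, and Col6a1 by 0.60. In each the rats fed for 6 days were all above those fed for 3 days, beside 3.11% of all 26517 probe sets. That separation is no separate result, since these genes were named for it or for a small unadjusted p. Among the smooth muscle genes of the list, the actin Acta2 differed by 0.46 (95% confidence interval -0.45 to 1.37) and the myosin heavy chain Myh11 by 0.41 (-0.30 to 1.11). The mean level of the 22 genes in the bottom was 13.19 to 14.37 after 6 days, against 12.32 to 13.86 after 3 days, so it overlapped between groups. How much of the collagen differences came with the amount of stroma in the sections was not tested.

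Exocrine pancreas markers were high in 1 villus bottom sample of each group. Over 21 genes their mean level in the bottom was 8.31 to 11.48 after 6 days, against 8.18 to 12.38 after 3 days. The median was 8.63 after 6 days and 8.27 after 3 days. In the top the range was 8.06 to 8.64 after 6 days, against 8.40 to 8.50 after 3 days.

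Genes of T cells and intraepithelial lymphocytes had differences on both sides of 0. Of 20 T-cell and intraepithelial lymphocyte genes 0 passed on the rat mean (limma), and 4 were higher and 1 lower at an unadjusted p under 0.05, beside 2.07% of all genes higher and 2.55% lower. There 12 were above and 8 below 0. In 5 of the 20 every 6-day rat was above every 3-day rat, beside 3.11% of all 26517 probe sets. Their mean level per rat was 9.18 to 9.29 after 6 days, against 9.06 to 9.28 after 3 days. Gzmb, the granule protease granzyme B, had 12.86, 12.44 and 13.00 in the villus top after 6 days, against 11.34, 11.58, 11.47 and 12.15 after 3 days. Its difference there was 1.13 ± 0.27 (SE; adjusted p = 0.755, limma). Unfed rats averaged 12.88 in the top, on the side of the 6-day group. Nkg7, a granule membrane protein, differed by 1.13 on the rat mean, Gzma by 1.07 and Cd7 by 0.81, and Cd2 differed by -1.01. The 3-day mean of Nkg7, 8.23, lies below the dim level of 8.99. The T-cell receptor component Cd3g differed by 0.32 (95% confidence interval -0.16 to 0.80), with 12.28, 12.37 and 12.65 after 6 days, against 12.59, 11.62, 12.27 and 12 after 3 days. The list's median was 0.10 on the rat mean, 0.32 in the top and -0.03 in the bottom, and on the rat mean it was -0.01 without 6-day rat 1.

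Most cholesterol synthesis genes had lower means after 6 days. Of 19 tested genes 0 passed on the rat mean (limma), 18 were below 0 and 3 were lower at an unadjusted p under 0.05, beside 2.55% of all genes lower by that rule and 49.3% above 0. The mean level of the 19 genes overlapped between groups, at 12.91 to 13.06 per rat after 6 days, against 13.02 to 13.57 after 3 days. In 7 of the 19 genes every 6-day rat was below every 3-day rat, beside 3.79% of all 26517 probe sets, while 3.11% of them had every 6-day rat above. Insig1, the sterol-regulated protein that retains SREBP cleavage-activating protein in the endoplasmic reticulum, had 13.69, 14.30 and 13.76 after 6 days, against 14.36, 14.77, 14.53 and 14.69 after 3 days. Its difference was -0.67 ± 0.29 (SE; adjusted p = 0.999, limma). Fdps, which makes farnesyl diphosphate, differed by -0.49, and Cyp51, the lanosterol demethylase, by -0.63. Idi1, the isopentenyl diphosphate isomerase, had 14.47, 14.38 and 14.70 after 6 days, against 15.21, 15.10, 15.11 and 15.60 after 3 days, which did not overlap. The median of the 19 genes was -0.34.

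Fatty acid synthesis genes had a median of -0.21 over 15 genes, with 0 passing (limma). At an unadjusted p under 0.05, 1 was higher and 2 were lower, beside 2.07% of all genes higher and 2.55% lower. Scd2, a stearoyl-CoA desaturase, had 11.28, 10.38 and 11.03 after 6 days, against 12.86, 11.40, 12.26 and 12.91 after 3 days. The difference was -1.46 ± 0.39 (SE; adjusted p = 0.815, limma), and 3-day rat 2 was the nearest to the 6-day rats. Acly, which supplies cytosolic acetyl-CoA, differed by -0.39 and Fasn, the fatty acid synthase, by -0.44 (95% confidence interval -0.89 to 0.01). The related desaturase Scd was the gene that was higher, by 1.20, at levels of 8.23, 8.42 and 7.22 after 6 days, against 7.10, 7.02, 6.28 and 6.62 after 3 days, which lie below the level of 8.99 used as a mark of dim signal.

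Genes of the circadian clock had differences on both sides of 0. Of 17 circadian genes 0 passed (limma) and 3 were lower at an unadjusted p under 0.05, beside 2.55% of all genes. Of the 17, 9 were above and 8 below 0. The clock repressor Per3 had 7.95, 9.97 and 8.40 after 6 days, against 10.62, 10.37, 11.25 and 10.52 after 3 days. Its 6-day mean of 8.77 lies below the dim level of 8.99. The repressor Nr1d1 (REV-ERB alpha) had 10.24, 10.84 and 9.62 after 6 days, against 11.33, 11.32, 11.24 and 10.95 after 3 days. Tef, a PAR bZIP factor of the clock output, differed by -0.91, and its relative Dbp by -1.14 (95% confidence interval -2.51 to 0.24). The list's median was 0.02. The hour at which each rat was killed is not given in the labels, and its part in these values was not tested.

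**Figure D5:**
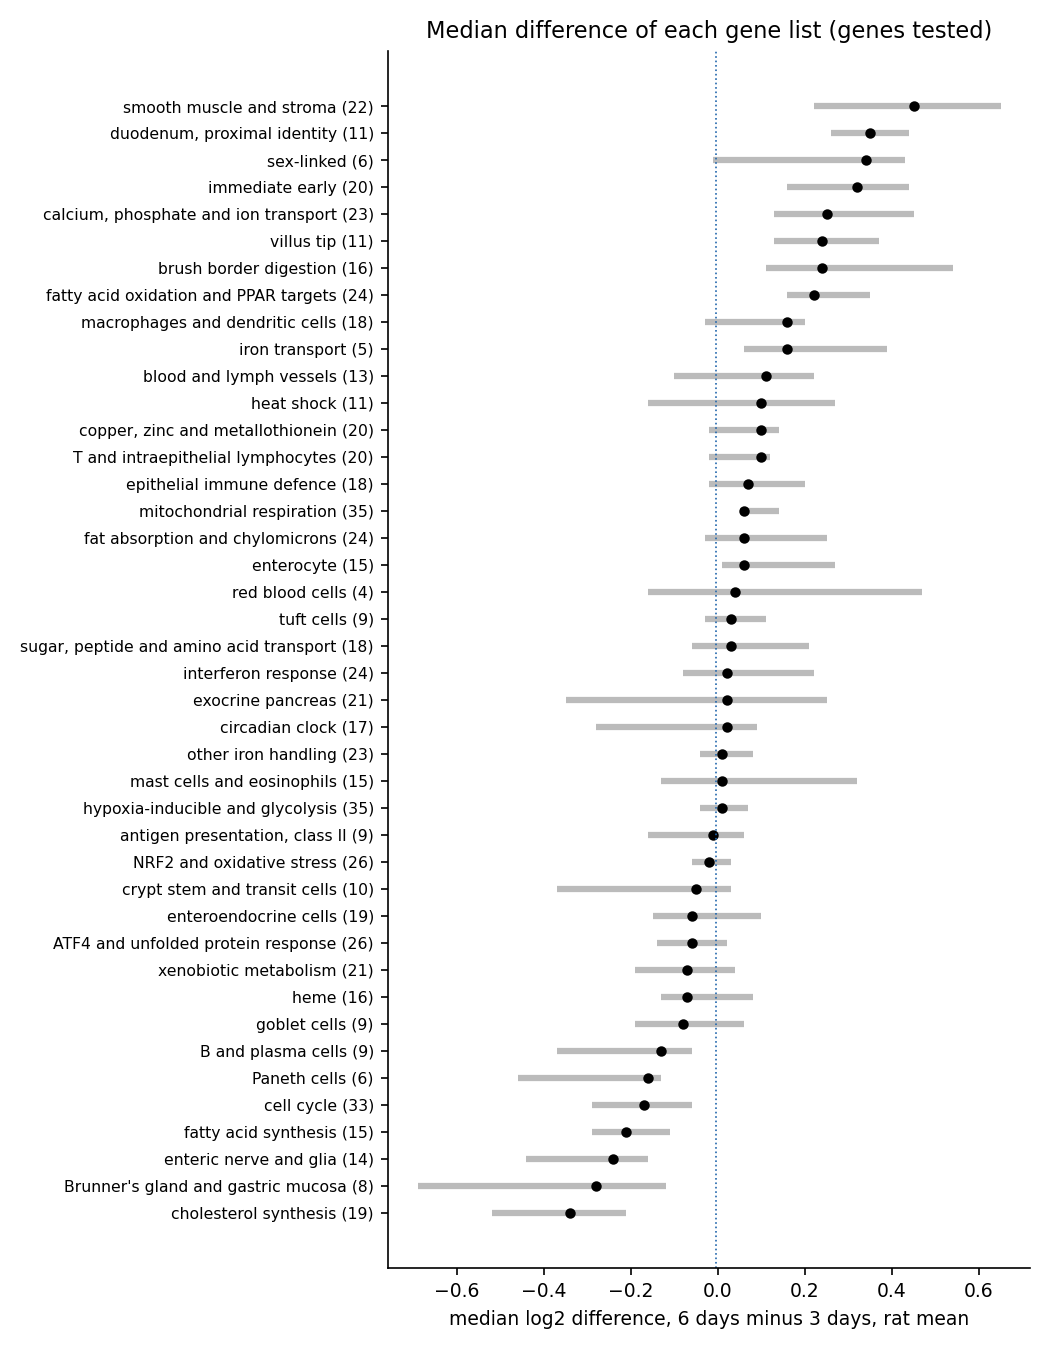
Median log2 difference, 6 days minus 3 days of iron on the rat mean, of 42 gene lists with the number of tested genes in parentheses (x axis in log2 units); points are the main values, grey bars span the lowest and highest median over the processing alternatives and the dotted line is the median of all 12975 genes (-0.005). The highest medians are those of stroma (0.45) and proximal identity (0.35) and the lowest that of cholesterol synthesis (-0.34).

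Further genes were named by their small unadjusted p among those whose groups did not overlap, and none of them passed. On the rat mean, Slc13a5, the sodium-coupled citrate transporter, had 7.75, 7.92 and 7.89 after 6 days, against 9.67, 8.93, 9.74 and 9.35 after 3 days. In the villus bottom alone it differed by -2.73 ± 0.51 (SE; adjusted p = 0.366, limma). The potassium channel subunit Kcns3 differed by -1.49 on the rat mean. The dimmest of 3 probe sets of Med1, a Mediator subunit that binds nuclear receptors, differed by -1.52, and its brighter ones by -0.29 and -0.66. Neuroglobin (Ngb), a heme protein, differed by 1.68 and the prolyl isomerase Ppic by 1.73. Each of Slc13a5, Kcns3, that probe set of Med1, Ngb and Ppic had at least 1 group mean below the dim level of 8.99.

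In the villus bottom, Slc4a11, a membrane transporter of the bicarbonate transporter family, had 9.23, 6.86 and 7.28 after 6 days, against 10.27, 10.18, 10.03 and 9.91 after 3 days. Its difference of -2.30 had an adjusted p of 0.423 (limma), and without 6-day rat 1 it was -3.02 with an adjusted p of 0.0366. Its 6-day mean of 7.79 lies below the dim level of 8.99. The phosphodiesterase Pde8b differed by -2.17 in the bottom with 1 probe set and by -0.73 with its brighter one. The dopamine receptor Drd4 differed there by -2.31 with its brighter probe set and by -0.70 with the other, and both groups' means of Pde8b and Drd4 lay below the dim level of 8.99. In the villus top, the AP-1 member Fosl1 had 12.21, 10.92 and 11.31 after 6 days, against 10.18, 6.88, 9.14 and 8.62 after 3 days. Its 3-day mean of 8.71 lies below the dim level. Elastin (Eln) differed by 2.75 in the top with its dimmer probe set, which had the 3-day rats at 5.99 to 6.35, where signal is dim, and by 0.12 with its brighter one. Aagab, an adaptin-binding protein, differed by -2.63 in the top (adjusted p = 0.743, limma), with 6.43, 7.57 and 7.86 after 6 days, against 9.76, 9.24, 10.57 and 10.10 after 3 days. That is the dimmest of its 3 probe sets, with a 6-day mean of 7.29, below the dim level. The brighter ones differed by -0.64 and -0.76 in the top.

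Deviations from the group mean in the top were most like those in the same animal's bottom array in 5 of the 7 fed rats, with correlations of 0.001 to 0.196. The 14 arrays had median intensities of 608 to 889 units and correlated with the other arrays of their group at 0.88 to 0.92. Both arrays of 3-day rat 3 had been scaled higher by the depositors than the other 12 (trimmed means of 2862 and 2866 units, against 2486 to 2491 for the others), which quantile normalisation removes. Arrays give no counts, so the number of rats, 3 against 4, limits the precision: the median standard error of a probe set's difference was 0.36 on the rat mean, 0.52 in the top and 0.38 in the bottom on the log2 scale.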

How the data were processed

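Total RNA from the top and the bottom part of duodenal villi was hybridised to Affymetrix arrays, 1 array per rat and segment. The authors deposited 1 linear intensity for each probe set of each array, and their signal algorithm is not given in the sources used here. In the deposited intensities the trimmed mean was 2485 to 2492 units on most villus arrays and 2862 to 2867 on 4, both arrays of control Wistar rat 3 and of 3-day Belgrade rat 3. Of 31099 probe sets 57 were controls and were left out, and 20826 of the rest had exactly 1 gene symbol, 436 several and 9780 none in the platform annotation, through which genes were named.

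A pseudocount of 43.5 units (the 10th percentile) was added, log2 was taken, and the 44 villus arrays were quantile normalised, because their log2 medians spanned 0.94. Probe sets above the 40th percentile of their array in at least 3 villus arrays were tested (26517). Groups were compared with limma version 3.58.1 in R version 4.3.3 (lmFit, eBayes with a trend, data.table version 1.17.8), in 1 fit of the 6 villus groups, on each rat's mean, on top, on bottom and on top minus bottom. P-values are two-sided and adjusted over all tested probe sets by the method of Benjamini and Hochberg. Of 22 rats, 2 pairs, control Wistar rats 1 and 2 and unfed Belgrade rats 1 and 2, were nearly identical (robust SD of their differences 0.147 to 0.179, against 0.231 to 0.729 in the other pairs of 30) and were each averaged, which left 20 samples. Nothing in the labels makes the rat numbers pair across groups. The fit was tested on simulated data.

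The members and lists were chosen with earlier results of these data known. Named genes are the 5 iron transport genes, up to 8 per direction and comparison (4 for top minus bottom) that separate every rat of the groups, ranked among called probe sets by change and otherwise by unadjusted p, and up to 4 of each list by unadjusted p, and not all of them are described. Alternatives were the normalisation, pseudocount, filter, samples in the fit, eBayes trend, an Xist covariate, the replicate block and leaving out each fed rat. Promoter sequences are RefSeq's on GRCr8, and figures were drawn with Python version 3.11.15.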

Additional observations from a re-analysis of the deposited data

Results flagged for a closer look

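Sets of 4 values of named genes in the rats fed iron for 3 days were examined by Dixon's gap criterion at the 95% level. Of 116 sets, 8 had a highest or lowest rat set apart from the others. Chance gives about 1 in 20 for sets chosen without regard to their values. Many named genes were chosen by p or group separation in these same rats, and some recur across comparisons, so that rate need not hold here. Of the 8 sets, 3 are of sex-linked genes, Xist and Eif2s3y in 3-day rat 2 and Ddx3x in 3-day rat 1. Xist was at 14.82 in 3-day rat 2, against 7.32 to 8.21 in the other 3-day rats, and Eif2s3y at 5.99 there, against 12.85 to 13.29. The 6-day rats had Xist at 14.90, 14.65 and 14.85, so on these transcripts 3-day rat 2 resembled them.

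The collagen gene Col6a1 was at 13.16 in rat 2, against 12.79 to 12.84 in the other 3-day rats. Ankrd52 in the villus top was at 7.47 in rat 2, against 9.19 to 9.47 in the others. The top-minus-bottom difference of Gzmf, a granzyme, was 0.34 in rat 2, against 1.37 to 1.5 in the others, and here rat 2 stood farther from the 6-day rats.

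In 3-day rat 1 the X-linked helicase gene Ddx3x was at 15.52, against 15.30 to 15.31 in the other 3-day rats, and somatostatin (Sst) at 11.68, against 12.01 to 12.04. In 3-day rat 3, Ngb in the villus bottom was at 7.81, against 6.49 to 6.70 in the others.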

How the results depend on the processing

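On the rat mean the count of probe sets called was 0 under all alternatives run, leaving out a fed rat included (0 to 0). In the villus top it was 0 in most, but 1 when only the 7 iron-fed rats were fitted and 1 (Rnf6) with the Xist level as covariate, and 0 to 1 when a fed rat was left out (1 without 6-day rat 2 and 1, Mgmt, without 6-day rat 3). In the villus bottom it was 1, but 0 with the pseudocount 4 times larger, 0 with only the 7 iron-fed rats (Lrat adjusted p = 0.484, limma) and 0 with the Xist covariate, and 0 to 2 when a fed rat was left out (2 without 6-day rat 1). For top minus bottom it was 0, and 0 to 2 when a fed rat was left out (2 without 6-day rat 3). Lrat in the bottom remained called in 12 of 19 alternatives, with differences of -3.47 to -1.83.

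The rat numbers did not pair the groups (correlations of same-numbered rats 0.039, 0.036 and 0.046), and with the replicate block the counts were 0, 0, 1 and 0. Leaving out iron-repleted Wistar rat 3, added after seeing the data, left all counts as they were. Values of named genes changed sign in 5 cases, all near 0: Cybrd1 in the top was -0.03 without 3-day rat 1 and -0.02 without 6-day rat 2, Slc40a1 in the top was -0.02 without 3-day rat 3 and -0.01 without 6-day rat 2 (ranges when a fed rat was left out -0.03 to 0.09 and -0.02 to 0.1), and Tfrc in the bottom was 0.03 with the Xist covariate.

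Medians of the 42 gene lists on the rat mean moved beyond the spread between rats in 28 recomputed values and did not in 812. Over the alternatives the median on the rat mean was 0.22 to 0.65 for stroma (0.22 without 6-day rat 1), 0.13 to 0.45 for calcium, phosphate and ion transport, 0.06 to 0.39 for iron transport, -0.52 to -0.21 for cholesterol synthesis and -0.02 to 0.12 for T and intraepithelial lymphocytes.

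Signals under the dim level, 3 against 4 rats, the unequal Xist levels and the unstated ages and hours of killing limit what these values can show.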

Other observations

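Further gene groups are given here as values. Fatty acid oxidation and PPAR target genes had a median of 0.22 over 24 genes on the rat mean, with 0 passing (limma). At an unadjusted p under 0.05, 2 were higher and 0 lower, beside 2.07% of all genes higher and 2.55% lower. Vnn1, a pantetheinase of the brush border, had 13.01, 12.53 and 13.10 after 6 days, against 12.76, 12.33, 11.14 and 10.83 after 3 days, and Acadm, a mitochondrial acyl-CoA dehydrogenase, differed by 0.36. Immediate early genes had a median of 0.32 over 20 genes, with 0 passing. At that unadjusted level 2 were higher and 1 lower, beside the same shares of all genes. Junb had 13.95, 13.40 and 13.45 after 6 days, against 12.04, 13.54, 12.54 and 12.91 after 3 days, and Egr1 differed by 1.01 (95% confidence interval -0.14 to 2.16).

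Jund gave opposite signs with its probe sets, -1.42 with the brighter and 0.78 with the other, on the rat mean. The brighter one was at 12.48, 12.38 and 12.58 after 6 days, against 14.64, 12.51, 14.64 and 13.84 after 3 days, where 12.51 belongs to 3-day rat 2. Enteric nerve and glia markers had a median of -0.24 over 14 genes on the rat mean, -0.06 in the bottom and -0.59 in the top. In the top 13 of 14 were below 0, beside 49.1% of all genes above 0. Their mean level in the top was 7.96 to 8.04 after 6 days, against 8.42 to 8.62 after 3 days. These ranges did not overlap, and both lie below the dim level of 8.99. On the rat mean the list's median was -0.40 without 3-day rat 1. Syp, a synaptic vesicle protein, had 10.11, 8.92 and 9.67 after 6 days, against 10.51, 10.46, 10.48 and 10.51 after 3 days. Cell cycle genes had a median of -0.17 over 33 genes, with 24 below 0, beside 49.3% of all genes above 0 on the rat mean. In the crypt list Axin2, a Wnt target, differed by 0.74 and Hopx by -0.60, neither past the test (limma, adjusted p = 0.999 each).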
